A study of Homo sapiens with 3 samples.

Results

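The vesicle coats COPI and COPII, the cargo receptors that ride in coated vesicles and the SNARE proteins that fuse them were described here as a set of 57 genes, chosen by symbol from a table of 17595 genes. A row was found for 56 of the 57. COPZ2, which encodes the less common form of the zeta subunit of COPI, has no row among those analysed, and it entered medians as 0. RNA 5′ ends were counted per gene in 3 libraries of a single group, HEK293, a widely used line of human embryonic kidney origin that was grown in DMEM with fetal calf serum and received no treatment. For each library 1000 cells were lysed together with spiked control RNA, and the part of the reverse transcription that equals 100 cells was amplified over 18 PCR cycles. The libraries are named 20, 21 and 23 after the index in their column headings. They held 1532672, 1384172 and 1601555 counts in all, of which 3.49% to 3.85% were spikes. Whether they came from separate cultures is not stated. The spread between libraries may therefore be technical, and no p-value speaks to other cultures.

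Levels are counts per 1000000 endogenous counts (CPM), given as mean ± SD over the 3 libraries, and 1 count equals 0.647 to 0.751 CPM. Since a tag is taken at the 5′ end of an RNA, levels were not divided by length. Orders of genes or classes are orders of counts, and some turn when counts are divided by coding length. HEK293 markers were present, with VIM at 340 ± 23.4 CPM, CITED1 at 51.0 ± 5.22, NEFM at 35.6 ± 5.08, NEFL at 33.9 ± 9.07 and HOXA11 at 26.9 ± 5.29 CPM. The blood and liver markers PTPRC, ALB and HBB had no row.

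Proteins that leave the endoplasmic reticulum (ER) are packed into vesicles by the COPII coat, in which SEC23 and SEC24 form the inner layer, with SEC24 binding cargo, and SEC13 and SEC31 form the outer cage. COPI, a complex of alpha, beta, beta prime, gamma, delta, epsilon and zeta subunits called coatomer, carries escaped ER proteins and cycling receptors back from the Golgi. Cargo receptors of the p24 family, the lectins LMAN1 and LMAN2 and the KDEL receptors link lumenal cargo to these coats. SNARE proteins on vesicle and target, classed as Qa, Qb, Qc and R by their position in the fusion bundle, join the membranes, and NSF with NAPA takes the spent bundles apart.

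A motif of the secretory pathway is shown first because it recurred at the starts of the coat genes. TGACGTGG, the core of the unfolded protein response element that XBP1 and ATF6 are known to bind, was searched on both strands in the RefSeq promoter table (GRCh38.p14, 250 bases before to 50 after a start). It lay in the promoter of 8 of the 52 genes with an entry (15.4%), against 123 of 10282 genes of the count table with an entry (1.196%) and 256 of 35116 promoter entries of the whole table (0.729%). Coat genes make up 6 of the 8, and of the 16 coat genes SEC24D alone had no entry. The 60-base stretches that hold it are printed 5′ to 3′ on the gene's strand, with the match in capitals, which read CCACGTCA where it is on the opposite strand.
COPA, chr1:160343212-160343271, minus strand: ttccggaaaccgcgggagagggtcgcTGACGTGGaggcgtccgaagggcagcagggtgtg
COPB1, chr11:14499826-14499885, minus strand: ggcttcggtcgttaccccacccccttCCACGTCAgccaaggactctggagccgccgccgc
COPB2, chr3:139389617-139389676, minus strand: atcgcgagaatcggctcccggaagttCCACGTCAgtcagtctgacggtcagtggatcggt
SEC16A, chr9:136484692-136484751, minus strand: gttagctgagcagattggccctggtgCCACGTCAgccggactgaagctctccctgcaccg
SEC23A, chr14:39103206-39103265, minus strand: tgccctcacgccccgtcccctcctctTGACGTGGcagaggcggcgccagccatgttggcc
SEC24A, chr5:134648580-134648639, plus strand: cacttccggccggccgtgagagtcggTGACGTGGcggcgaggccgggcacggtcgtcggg
KDELR3, chr22:38468024-38468083, plus strand: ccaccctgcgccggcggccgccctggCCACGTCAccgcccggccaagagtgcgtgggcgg
STX5, chr11:62832034-62832093, minus strand: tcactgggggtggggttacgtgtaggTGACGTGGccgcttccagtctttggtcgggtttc

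COPB2 held a second match on the same strand in the stretch at chr3:139389810-139389869. The 8 genes did not share a level. They lay between 16.7 CPM for SEC24A and 139 CPM for COPB2. None of the other motifs searched was more frequent in the members than in the genes of the count table. The longer ER stress element, which joins a CCAAT box to CCACG across a spacer, was in 0 of the 52 promoters and in 0.146% of the genes of the count table. The cyclic AMP element TGACGTCA was in 1, that of STX12 (1.92%, against 3.81%), the TATA box letters TATAAA in 0 (against 8.63%), and CCAAT in 22 (42.3%, against 43.4%). The ER stress element and TGACGTCA are rare in the table, so counts of 0 and 1 in 52 say little about the members. CCAAT is contained in the ER stress element, and TGACGTCA shares its first 6 letters with TGACGTGG. The members' promoters had a median GC content of 64.8%, against 65.3% for the genes of the count table with an entry. A match of letters is a description and says nothing of whether a factor bound in these cells.

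The trafficking genes were mostly expressed at moderate levels. All 56 listed genes had a count in every library (98.2% of the 57, against 72.6% of all listed genes). Of the 57 genes 53 averaged at least 10 CPM (93.0%, against 44.6% of all listed genes) and 13 at least 100 CPM (22.8%, against 9.91%), while 0 reached 1000 CPM (against 0.898%). The median over the 57 genes was 58.3, 57.1 and 55.6 CPM in libraries 20, 21 and 23, and that of all listed genes was 6.78, 6.76 and 7.12 CPM. Together the 57 genes took 0.420% ± 0.0044 of endogenous counts (SD, n = 3). TMED2 was the highest at 292 ± 5.60 CPM and GOSR2 the lowest listed at 5.10 ± 2.12 CPM, a 57.3-fold range. Per kilobase of coding length SEC24D was the lowest, at 2.59 CPM, and GOSR2 had 6.61 CPM. Scaled to the spikes, at 20000 molecules per cell, TMED2 stood at 153 ± 8.18 and GOSR2 at 2.67 ± 1.09 molecules per cell. That scaling takes cellular RNA and spikes to be captured alike, which was not tested.

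**Figure D1:**
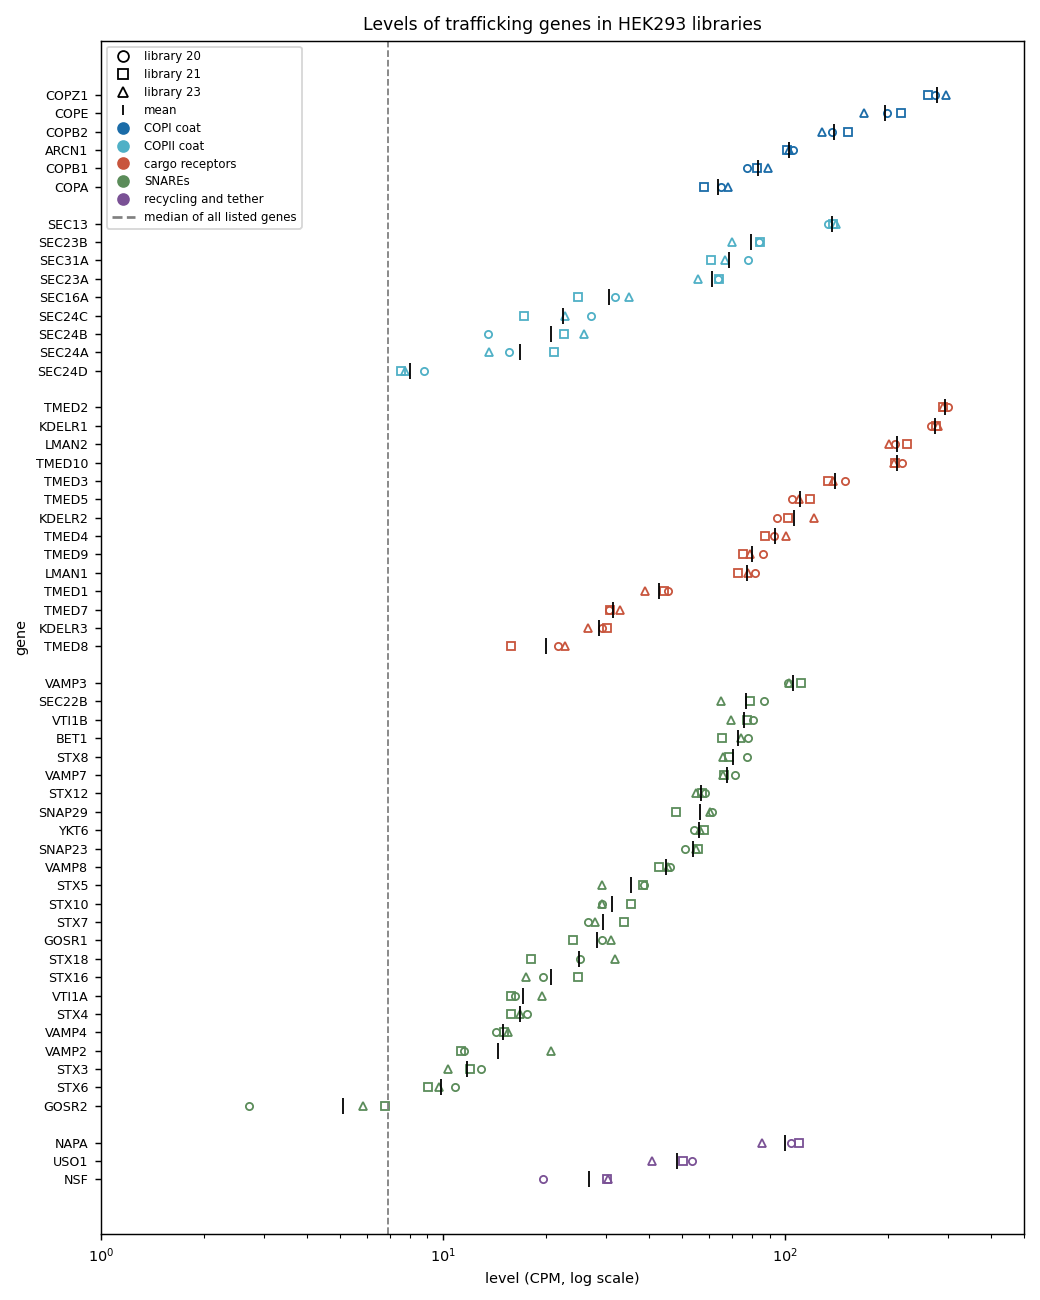
Levels of the 56 listed genes in CPM on a log axis, by class, with 1 symbol per library, a black bar for the mean of the 3 libraries and a dashed line at the median of all listed genes. TMED2, COPZ1 and KDELR1 stand at the right, and of the 56 genes GOSR2 alone has its mean left of the dashed line.

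The classes differed in their medians. Coat subunits had medians of 71.1, 62.4 and 67.3 CPM in libraries 20, 21 and 23, cargo receptors 93.8, 94.7 and 105 CPM, and SNAREs 33.9, 36.8 and 31.4 CPM. The order of the 3 medians was the same in every library, but the coat median joins 2 coats of unlike level. COPI alone had 105, 101 and 102 CPM, above the cargo receptors in libraries 20 and 21 and below them in 23. COPII alone had 31.8, 24.8 and 34.9 CPM, below the SNAREs in libraries 20 and 21 and above them in 23. Neither coat alone lay between cargo receptors and SNAREs in every library. These orders depended on the lowest members. With COPZ2, which entered as 0, left out, COPI lay above the cargo receptors in every library. With members of at least 10 CPM only, COPII lay above the SNAREs in every library. Coats lay below cargo receptors by a log2 ratio of medians of -0.55 ± 0.13, coats above SNAREs by 0.98 ± 0.19, and cargo receptors above SNAREs by 1.53 ± 0.20 (SD, n = 3; description, no test). Divided by coding length, coats over SNAREs turned to -0.99, and the median coding length was 2859 bases for the listed coat genes and 748.5 bases for the SNAREs. Coats over cargo receptors became -2.71 and cargo receptors over SNAREs 1.72, so those orders held. In summed counts the 14 cargo receptors took 0.172% ± 0.00099 of endogenous counts, the 16 coat genes 0.131% ± 0.0013 and the 24 SNAREs 0.0996% ± 0.0021. Per coding length the sum for coats also fell below that for SNAREs.

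**Figure D2:**
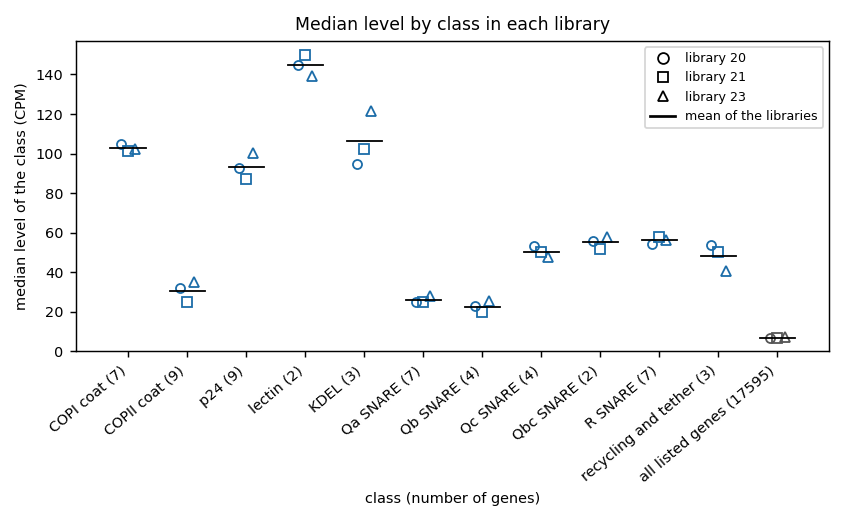
Median level of each class in CPM, with 1 symbol per library, a bar for the mean of the 3 libraries and the number of genes in brackets. The COPI coat, p24 proteins, lectins and KDEL receptors lie between 87.2 and 150 CPM in every library, and the COPII coat and the Qa and Qb SNAREs lie at or below 34.9 CPM.

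Coatomer subunits, which assemble in equal numbers, were not counted in equal numbers. COPZ1, the common zeta subunit, was highest at 274, 261 and 296 CPM in libraries 20, 21 and 23. COPE, the epsilon subunit that stabilises the complex, had 198, 218 and 170 CPM, and COPB2, the beta prime subunit, had 137, 153 and 128 CPM. These 3 subunits did not overlap with one another in any library. ARCN1, the delta subunit, had 105, 101 and 102 CPM and COPB1, the beta subunit, 77.2, 82.7 and 89.3 CPM. COPA, the alpha subunit, which with COPB2 forms the outer layer, was the lowest at 65.1, 57.9 and 67.9 CPM. COPZ1 exceeded COPA by a log2 ratio of 2.12 ± 0.047, or 4.34-fold, and COPB1 exceeded COPA by 0.38 ± 0.13. COPB1 lay below COPB2 by -0.74 ± 0.19, a fold of 0.598 (limma adjusted p = 1.1e-05). The gamma subunit was not among the 57 genes. Its genes COPG1 and COPG2 had 41.9 ± 8.50 and 7.78 ± 4.36 CPM, both below COPA.

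COPII subunits spread more widely, with the SEC24 genes at the bottom. SEC13, which also belongs to the nuclear pore, had 133, 138 and 140 CPM in libraries 20, 21 and 23. Its cage partner SEC31A had 77.9, 60.9 and 66.6 CPM, so SEC13 exceeded SEC31A by a log2 ratio of 1.01 ± 0.21 (no test). The GTPase-activating subunit SEC23A had 63.7, 63.9 and 55.6 CPM and its paralog SEC23B 84.0, 84.2 and 69.9 CPM. Both SEC23 genes were lower in library 23. Within each library SEC23A was the lower, with a log2 ratio over SEC23B of -0.37 ± 0.040 (limma adjusted p = 0.014). The ratio stayed at -0.36 without library 20 or 21, but with fewer libraries it missed the threshold (limma adjusted p = 0.064 and 0.069), as it did with a variance prior that has no trend (limma adjusted p = 0.084). SEC16A, the scaffold of ER exit sites, had 31.8, 24.8 and 34.9 CPM. Per kilobase of coding length SEC16A had 4.32 CPM, above SEC24D at 2.59 CPM. It then lay below SEC24A, SEC24B and SEC24C, at 5.10, 5.31 and 6.81 CPM.

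The 4 SEC24 paralogs, which choose cargo by its export signals, split into SEC24D and the rest. SEC24D had 8.81, 7.51 and 7.76 CPM in libraries 20, 21 and 23, or 13, 10 and 12 counts. SEC24A had 15.6, 21.04 and 13.6 CPM, SEC24B 13.6, 22.5 and 25.9 CPM, and SEC24C 27.1, 17.3 and 22.6 CPM. SEC24D was the lowest in every library, and the other paralogs changed places between libraries. SEC24A, SEC24B and SEC24C exceeded SEC24D by log2 ratios of 1.01 ± 0.38, 1.28 ± 0.59 and 1.42 ± 0.22 (limma adjusted p = 0.010, 0.0019 and 0.00039). Without library 21 SEC24A and SEC24B over SEC24D were 0.79 and 1.15 and missed the threshold (limma adjusted p = 0.086 and 0.051), and without library 23 SEC24B over SEC24D was 1.07 (0.055). The ratios among SEC24A, SEC24B and SEC24C did not pass the threshold (limma adjusted p between 0.18 and 0.65), at depths of 20 to 40 counts per gene and library. Without library 21, SEC24A over SEC24C passed at -0.75 (limma adjusted p = 0.047). Taken as sums, SEC23A and SEC23B together exceeded the 4 SEC24 genes by a log2 ratio of 1.04 ± 0.18, although the proteins pair as 1 SEC23 with 1 SEC24. The COPI median exceeded the COPII median by a log2 ratio of 1.77 ± 0.25, from 105, 101 and 102 CPM for COPI and 31.8, 24.8 and 34.9 CPM for COPII.

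**Figure D3:**
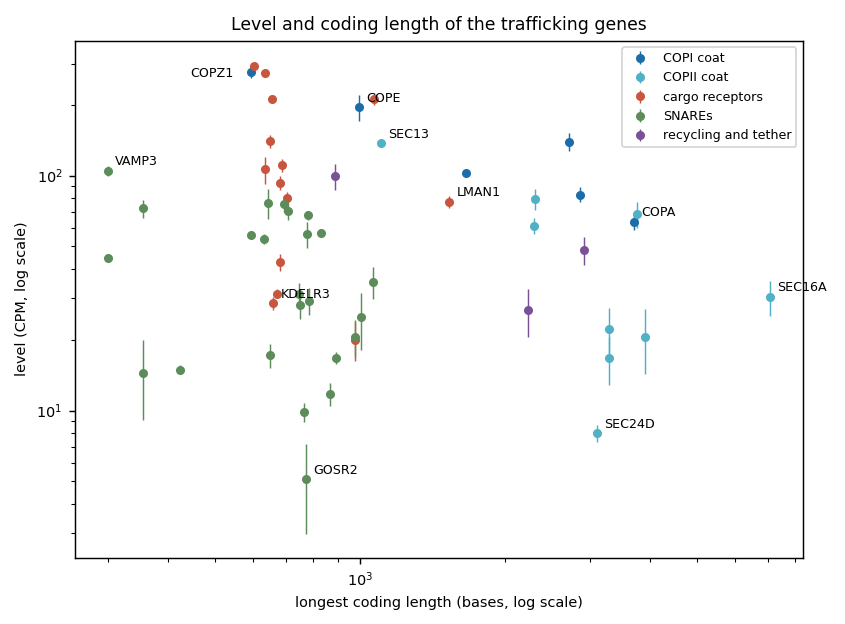
Level in CPM against the longest coding length in bases, both on log axes, for the 56 listed genes, with bars of 1 SD over 3 libraries. Short coat subunits such as COPZ1, COPE and SEC13 stand high, the long SEC24 genes stand low, and the p24 proteins spread widely although 8 of the 9 lie between 603 and 705 bases.

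Among the 15 listed coat genes, shorter coding sequences went with higher counts, with a Spearman rho of -0.73 between CPM and coding length. The coefficient was -0.46 over the 14 cargo receptors, -0.31 over the 24 SNAREs and -0.38 over 7253 genes with at least 10 CPM and a known length. These are descriptions across genes, which are not independent replicates, and all points share the same libraries. Whether long RNAs give fewer 5′ tags in this method was not tested.

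The p24 receptors, single-pass proteins that form heteromers and sort GPI-anchored proteins among other cargo, ran over a 14.6-fold range. TMED2, the only beta member, had 299, 289 and 290 CPM in libraries 20, 21 and 23, and TMED10, the only delta member, 219, 209 and 208 CPM. They were the highest of the family in each library. TMED2 exceeded TMED10 by a log2 ratio of 0.46 ± 0.016, or 1.38-fold (limma adjusted p = 1.9e-05). Counting error alone was 4.85% for TMED2 and 5.70% for TMED10, so this SD understates the uncertainty. The gamma members TMED3 and TMED5 followed at 140 ± 8.63 and 111 ± 6.84 CPM, and the alpha members TMED4 and TMED9 at 93.4 ± 6.58 and 80.0 ± 5.54 CPM. TMED4 did not pass the threshold against either neighbour in this order, with log2 ratios of -0.25 ± 0.17 over TMED5 and 0.22 ± 0.12 over TMED9 (limma adjusted p = 0.056 and 0.096). Per coding length TMED4 over TMED9 passed, at 0.27 (limma adjusted p = 0.046). The gamma members TMED1 and TMED7 were low at 42.9 ± 3.53 and 31.4 ± 1.36 CPM, and TMED8, an atypical relative, was the lowest at 20.0 ± 3.72 CPM. Of the 36 pairs within the family 34 passed the threshold, against 82.0% of all same-stem pairs in the table. Some steps kept their direction but missed the threshold with 1 library fewer or with a variance prior that has no trend. TMED3 over TMED5 was 0.34 with all libraries and 0.25 without library 20 (limma adjusted p = 0.096). TMED1 over TMED7 was 0.44 with all libraries, 0.38 without library 20 and 0.40 without library 21 (limma adjusted p = 0.14 and 0.13). TMED7 over TMED8 was 0.66 with all libraries and 0.51 without library 21 (limma adjusted p = 0.087). With the prior that has no trend, TMED3 over TMED5, TMED1 over TMED7 and TMED5 over TMED9 missed the threshold (limma adjusted p = 0.13, 0.074 and 0.064). TMED2 over TMED8 was the largest ratio among the pairs tested in the 57 genes, at 3.86 ± 0.26, or 14.5-fold (limma adjusted p = 2.3e-14).

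Each of the other receptor families had a clear leader. KDELR1, which returns ER proteins that carry a KDEL tail, had 266, 277 and 280 CPM in libraries 20, 21 and 23. KDELR2 had 94.9, 102 and 122 CPM and KDELR3 29.1, 30.1 and 26.5 CPM. The 3 receptors kept this order in every library, with no overlap. KDELR1 exceeded KDELR2 by 1.37 ± 0.15 and KDELR3 by 3.25 ± 0.12, and KDELR2 exceeded KDELR3 by 1.88 ± 0.27 on the log2 scale (limma adjusted p = 2.5e-10, 4.1e-14 and 4.2e-09). Such small p-values depended on the settings. With a least pooled count of 2 for a pair, KDELR1 over KDELR3 had limma adjusted p = 0.00019. With a variance prior that has no trend, the same ratio had limma adjusted p = 0.00078. KDELR1 made up 67.0% of the summed level of the family. LMAN1, the receptor also called ERGIC-53 that carries clotting factors, had 81.3, 72.9 and 77.6 CPM, and LMAN2, or VIP36, 209, 227 and 201 CPM. LMAN1 lay below LMAN2 by -1.45 ± 0.16, a fold of 0.365 (limma adjusted p = 5.5e-10).

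**Figure D4:**
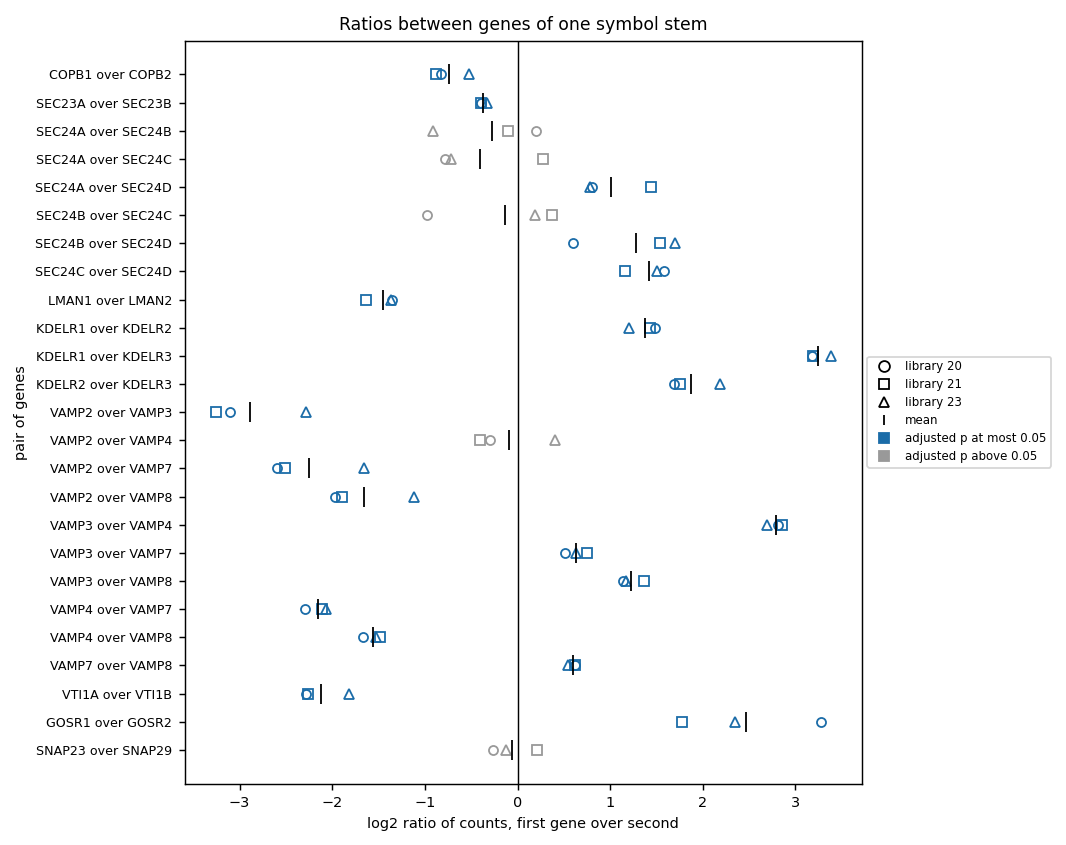
Log2 ratio of counts, first gene over second, for pairs of genes with the same symbol stem, with 1 symbol per library and a black bar for the mean. Blue pairs passed the threshold and grey ones did not: SNAP23 over SNAP29, VAMP2 over VAMP4 and the 3 ratios among SEC24A, SEC24B and SEC24C straddle 0.

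SNAREs of every class were listed, 24 of 24, and 22 of them averaged at least 10 CPM. The R-SNAREs, which sit mostly on vesicles, had the highest median of the classes with more than 2 genes, at 56.1 ± 1.83 CPM, and the Qa and Qb classes the lowest, at 25.9 ± 1.67 and 22.6 ± 2.66 CPM. VAMP3, the R-SNARE of recycling endosomes, was the highest SNARE at 102, 111 and 102 CPM in libraries 20, 21 and 23. VAMP7 of late endosomes had 67.8 ± 2.94 CPM, VAMP8 44.7 ± 1.69 CPM and VAMP4 of the trans-Golgi network 14.9 ± 0.65 CPM. VAMP2, best known from synaptic vesicles, had 11.5, 11.3 and 20.7 CPM, or 17, 15 and 32 counts. It was highest in library 23, but no pair of libraries differed past the threshold (exact binomial test, lowest adjusted p = 0.74). VAMP2 lay below VAMP3 by -2.88 ± 0.52 on the log2 scale (limma adjusted p = 4.4e-10). Against VAMP4 its ratio of -0.10 ± 0.44 missed the threshold (limma adjusted p = 0.77). VAMP3 exceeded VAMP7 by 0.63 ± 0.12 and VAMP7 exceeded VAMP8 by 0.60 ± 0.048 (limma adjusted p = 0.00013 and 0.0012), but by coding length VAMP7 over VAMP8 turned to -0.78.

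The SNAREs of ER to Golgi traffic were uneven. SEC22B, an R-SNARE of this step, had 86.7, 78.9 and 64.7 CPM in libraries 20, 21 and 23, BET1, its Qc partner, 77.9, 65.4 and 74.4 CPM, and YKT6, a lipid-anchored R-SNARE, 54.2, 57.9 and 56.3 CPM. The Qa-SNARE STX5, which these proteins join, had 38.6, 38.3 and 29.1 CPM, below all 3 in every library. STX18, the Qa-SNARE of retrograde fusion with the ER, had 25.1, 18.0 and 31.7 CPM and the widest spread of the members with at least 100 pooled counts, a coefficient of variation of 27.4%. STX5 over STX18 was 0.52 ± 0.60 (limma adjusted p = 0.047), with STX5 the lower in library 23. This call did not hold under 7 alternatives, among them leaving out library 20 (log2 ratio 0.48, limma adjusted p = 0.24) or library 21 (0.25, adjusted p = 0.43). The Golgi Qb-SNAREs GOSR1 and GOSR2 had 28.1 ± 3.62 and 5.10 ± 2.12 CPM, with 4, 9 and 9 counts for GOSR2 in libraries 20, 21 and 23. GOSR1 exceeded GOSR2 by 2.47 ± 0.76 (limma adjusted p = 5.8e-06).

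Among SNAREs of endosomes and the trans-Golgi network, STX8 and STX12 led the syntaxins. STX8, a Qc-SNARE of late endosomes, had 77.2, 68.4 and 66.0 CPM in libraries 20, 21 and 23, and STX12, a Qa-SNARE of early endosomes, 58.3, 57.1 and 55.0 CPM. STX8 exceeded STX12 by 0.31 ± 0.084 (limma adjusted p = 0.047), and by 0.26, 0.33 and 0.33 without library 20, 21 or 23, where it missed the threshold (limma adjusted p = 0.16, 0.097 and 0.079). The other syntaxins formed a graded row from STX5 through STX10 (31.2 ± 3.57 CPM), STX7 (29.4 ± 3.92), STX18 and STX16 (20.6 ± 3.76) to STX4 (16.7 ± 0.92), STX3 (11.7 ± 1.28) and STX6 (9.85 ± 0.92 CPM). No neighbours in this row from STX5 down passed the threshold (limma adjusted p between 0.13 and 0.68), though STX4 over STX3 did with a variance prior that has no trend (0.049) and STX7 over STX18 did per coding length (0.025). Per coding length STX5 also fell below STX10 and STX7. Over all 45 syntaxin pairs 35 passed, against 82.0% of all same-stem pairs. STX3 and STX4, Qa-SNAREs of the cell surface, were near the bottom. SNAP23, their Qbc partner there, had 50.8, 55.6 and 55.0 CPM and SNAP29, which acts in autophagosome fusion, 61.0, 48.1 and 60.2 CPM, and their log2 ratio of -0.06 ± 0.24 missed the threshold (limma adjusted p = 0.72). VTI1A lay below VTI1B, at 17.2 ± 1.97 against 75.8 ± 5.88 CPM, by -2.12 ± 0.27 (limma adjusted p = 1.0e-08).

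The factors that recycle SNAREs and tether vesicles were also unequal. NAPA, or alpha-SNAP, the adaptor that brings NSF to spent SNARE bundles, had 104, 110 and 85.4 CPM in libraries 20, 21 and 23. The ATPase NSF had 19.7, 30.1 and 30.4 CPM. NAPA was higher in each library, by a log2 ratio of 1.90 ± 0.45, although NAPA was lowest and NSF highest in library 23. USO1, or p115, the tether that links vesicles to the Golgi, had 53.5, 50.3 and 40.8 CPM.

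Of 106 pairs among the 57 genes that share a symbol stem, 89 passed the threshold (84.0%), against 82.0% of 14231 such pairs in the whole table (limma moderated test, Benjamini-Hochberg over all 14231). The share is close to that background, so unequal levels of genes that share a symbol stem are common in this table. The median absolute log2 ratio was 1.196 over the 106 pairs and 1.88 over the 14231. All ratios compare counts, and differences in capture between RNAs were not tested.

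Differences between libraries were rare in the whole table, so a count of 0 among the trafficking genes says nothing particular about them. By the exact binomial test 0 of the 56 listed genes differed between any 2 libraries after adjustment over all 11424 genes and 3 pairs of libraries, against 64 of 11424 genes (0.560%). At an unadjusted p of at most 0.05, 6 of 168 comparisons passed in the members, against 2379 of 34272 over all genes, and a chi-square test over the 3 libraries also called 0 members. The lowest adjusted p was 0.32, for COPE between libraries 21 and 23. For the 43 members with at least 100 pooled counts the median coefficient of variation between libraries was 7.70%, and their median counting error alone was 9.73%, against 9.15% and 10.7% over 5204 genes at that depth. ARCN1 varied least, at 1.84%, although its counting error alone was 8.18%.

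A list of 50 other genes of the pathway, grouped by function, was set beside the members. Of these 50 genes 43 were listed, 38 averaged at least 10 CPM, and 1 differed between libraries. That gene, ERGIC1, had 15, 23 and 51 counts in libraries 20, 21 and 23 (exact binomial test, adjusted p = 0.011). Among those without a row were SEC16B, LMAN1L, STX11, STX19, VAMP5 and SNAP25. STX1A, which pairs with SNAP25 and VAMP2 in neurons, had 5.68 ± 1.85 CPM. ARF1, the GTPase that recruits COPI, had 699 ± 18.9 CPM, and ARFGAP3, which ends its cycle, 44.0 ± 1.93 CPM. SAR1A, the GTPase that starts the COPII coat, had 165 ± 2.84 CPM and TFG, an exit site protein, 265 ± 9.78 CPM. Among further cargo receptors and chaperones of export BCAP31 had 448 ± 29.1 CPM, CNIH4 353 ± 17.5 and CNIH1 303 ± 29.6 CPM. Of the SNAREs outside the members SNAP47 was highest at 63.3 ± 2.30 CPM, then SEC22A at 50.6 ± 6.25 and USE1 at 47.7 ± 6.92 CPM. Of the partners and tethers the highest were SCFD1, which binds STX5, at 119 ± 11.8 CPM, GORASP2 at 110 ± 4.99 and VPS45 at 37.7 ± 5.59 CPM.

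SEC31B, the paralog of SEC31A, was listed at 529 ± 34.3 CPM, above every member. NDUFB8, a respiratory chain gene on the same strand upstream of SEC31B, has no row among those analysed, and the GENCODE v29 annotation holds a gene, AL133352.1, that spans both. Which start gave these tags was not tested, so no ratio to SEC31A is given. Reads of overlapping genes may be shared in other cases too. In GENCODE v29, 19 of the listed members overlap a listed gene, 18 on the other strand and 3 on the same strand, with VAMP7 left out because its name is not unique there. Among them are SEC24A with SAR1B, KDELR3 with DDX17 and KDELR2 with DAGLB. Whether the authors' counting used strand is not given in the sources used here. These values are uncertain to that extent. TMED10 and VTI1B have a listed pseudogene each, TMED10P2 with 1 count and VTI1BP4 with 5 counts in all.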

How the data were processed

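The values the authors deposited are raw counts for each gene and spike in 3 libraries, with no normalization. The tools were cutadapt 1.2.1 and STAR 2.4.0a, on hg19 (GRCh37), per the submitters' processing notes. Counter, annotation, strand use and collapsing of molecular identifiers: not given in the sources used here. Whether 1 count is 1 read or 1 molecule is thus unknown. Columns carry an index and no replicate number and were used as unnumbered replicates of 1 group. The members and lists were chosen with earlier results of these data known. All members were named; of other pathway genes, those with no row and the 3 highest of each class, with COPG2, STX1A, SAR1B, ERGIC1, NDUFB8, AL133352.1, DDX17, DAGLB and the pseudogenes named after their values were seen. A marker and a pathway gene are not reported here.

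Same-stem pairs are all pairs of listed genes whose symbols agree without the closing letter or digits, in families of at most 20 genes and with at least 20 pooled counts. Per library the log2 ratio of counts (pseudocount 0.5) was set against 0 by the moderated test of limma, with a variance prior that follows abundance and Benjamini-Hochberg adjustment over the whole table at 0.05. Libraries were compared by a 2-sided exact binomial test for genes with at least 10 pooled counts. Only counting error enters that test. Count models between groups had no contrast to test. Coding length is the longest coding sequence of a gene name in GENCODE v29 (GRCh38). The counts are on another build, and the join was by name. Promoters were matched by symbol in the RefSeq table; KDELR2, SEC24D, TMED4, TMED9 and USO1 had no entry. Both tests were also run on simulated counts, with counting error alone for the library test and a fixed extra spread for the pair test. Because those settings were assumed, the runs cannot give error rates for these libraries. Python 3.11.15, R 4.3.3, limma 3.58.1, edgeR 4.0.16 (TMM) and DESeq2 1.42.0 (size factors) were used.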

Additional observations from a re-analysis of the deposited data

How the results depend on the processing

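The count of members that differed between libraries stayed at 0 with a least pooled count of 1 or 50, with TMM-scaled totals, with the chi-square test and without any 1 library. The count of same-stem pairs past the threshold, 89 of 106, was 84 to 89 under the other pseudocounts, filters, variance prior and coding lengths, and 77 to 82 when 1 library was left out. The size of small limma adjusted p-values also depended on the filter and the variance prior, as given for KDELR1 over KDELR3. Class medians moved by less than their SD under TMM, DESeq2 and spike scaling. With members of at least 10 CPM only they were 73.3 CPM for coats, 121 for COPI, 45.3 for COPII and 40.5 for SNAREs. COPI then lay above the cargo receptors, and COPII above the SNAREs, in every library. Per coding length, an alternative chosen after the data were seen, the log2 ratios of class medians were -2.71 for coats over cargo receptors, -0.99 for coats over SNAREs (opposite in direction), 1.72 for cargo receptors over SNAREs and 2.84 for COPI over COPII, and VAMP7 over VAMP8 turned to -0.78. COPI over COPII was 1.32 by summed counts per member. The cause of the other shifts was not tested. Division by protein length from RefSeq was planned and not run. No paired analysis was possible because there is 1 group. Groups of 3 are too small for a test of outlying libraries. Depth limits the SEC24 genes, GOSR2, VAMP2, VAMP4, STX3, STX4, STX6, STX16, VTI1A and TMED8, at 4 to 40 counts per library. For STX4 and VAMP4 the counting error alone was 20.3% and 21.5%, above their coefficients of variation of 5.51% and 4.39%. Small SDs of ratios are limited in the same way. For TMED2 over TMED10, SEC23A over SEC23B and VAMP7 over VAMP8 the standard errors of the moderated test were 0.075, 0.13 and 0.15. Each was above the SD of that ratio.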
